A study of Mus musculus with 2 samples.

Results

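Oligodendrocyte precursors of the mouse hippocampus were taken as the cell barcodes that held at least 4 unique molecular identifiers (UMIs, 1 per captured RNA molecule) of Pdgfra, Cspg4, Lhfpl3, Tnr and C1ql1 summed. Barcodes with 10 or more UMIs of the oligodendrocyte genes Mog, Mag, Ermn, Opalin and Cldn11 were not taken. The same held from 5 UMIs of the astrocyte genes Gja1, Ntsr2, Cldn10, Gjb6 and Aqp4, from 5 UMIs of the neuronal genes Snap25 and Syt1, and from 8 UMIs of the choroid plexus genes Folr1, Kcnj13, Sostdc1, Calml4, Cox8b and Kl. The rule found 847 precursors among 10015 barcodes, with 383 of 5443 in the library labelled wt and 464 of 4572 in the library labelled GlaKO. The series holds these 2 libraries only, 1 for each genotype, made from hippocampi of mice aged 57 weeks. GlaKO mice are a model of Fabry disease, in which the X-linked gene for the lysosomal enzyme alpha-galactosidase A is inactivated, and the wt mice were their littermates. Mice of both groups were anaesthetised with xylazine and ketamine and perfused with saline. Their hippocampi were dissociated with enzymes, cleared of debris on a density gradient and sorted by the dead-cell dye 7-AAD before droplet capture and 3' library preparation. The sources used here give neither the strain, the sex and the allele nor the number of animals behind each library. UMIs of the Y-linked genes Ddx3y, Eif2s3y, Kdm5d and Uty were present in both libraries, and Xist was listed in neither.

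Oligodendrocyte precursors are glial cells that stay able to divide in the adult brain, receive synapses from neurons and give rise to the oligodendrocytes that wrap axons in myelin. Platelet-derived growth factor acting on the receptor Pdgfra keeps them dividing, and the transcription factors Olig1, Olig2 and Sox10 hold them in the lineage. On the way to an oligodendrocyte a precursor passes through a committed state that transiently makes Gpr17, Bmp4, Enpp6 and Bcas1, and then switches on myelin genes such as Mbp and Mog. Alpha-galactosidase A removes the terminal galactose from the glycosphingolipid globotriaosylceramide, which builds up in lysosomes where the enzyme is missing.

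With 1 library for each genotype no test between genotypes was possible, and every difference given is one between 2 libraries. Levels are UMIs summed over the precursors of a library per 1000000 precursor UMIs (CPM). The log2 ratio is GlaKO over wt, and the range after it is an exact 95% interval that covers counting error only. A gene was compared when both libraries listed it and its UMIs summed to at least 100, and it is described as higher or lower when it differed by at least 1.5-fold.

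The precursors held the genes that define the cell type. All 5 genes of the rule had UMIs in 269 wt precursors (70.2%) and 338 GlaKO precursors (72.8%), and only 5 and 6 precursors held UMIs of 1 rule gene alone. Those 5 genes chose the cells, so their levels are a description. Pdgfra stood at 2459 CPM in wt and 2328 CPM in GlaKO precursors, with UMIs in 97.9% and 97.2% of them. Cspg4, the NG2 proteoglycan, stood at 789 and 861 CPM, Tnr, the matrix protein tenascin-R, at 1544 and 1661 CPM, and C1ql1, a secreted synaptic protein, at 1500 and 1337 CPM. Lhfpl3 stood at 1625 and 1554 CPM. The log2 ratios of the 5 genes lay between -0.17 for C1ql1 and 0.13 for Cspg4. Genes that took no part in the rule were as widespread: Olig1 had UMIs in 95.8% of wt and 95.9% of GlaKO precursors, and Ptprz1, a receptor phosphatase of glial progenitors, in 98.4% and 98.1%.

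Outside the rule, the genes that set precursors furthest apart from other cells were Gpr17, Neu4 and Nxph1. For this, oligodendrocytes, astrocytes, neurons, choroid plexus cells and microglia were classed by the same marker sums, and each gene was ranked by its precursor level over the highest of those 5 classes, taking the lower value of the 2 libraries. Gpr17, a receptor of committing precursors, stood at 812 CPM in wt and 961 CPM in GlaKO precursors, log2 differences of 7.21 and 7.15 from oligodendrocytes, the next class. Neu4, a sialidase, stood at 777 and 760 CPM, log2 differences of 7.18 and 6.86 from astrocytes. Nxph1, a secreted ligand of neurexins, stood at 407 and 400 CPM, log2 differences of 7.47 and 6.81 from astrocytes. Each of the 3 genes was thus far more abundant in precursors than in any of these classes in either library. The limit on rule markers bears on the size of these differences, and no vascular class was formed. In no class were 13 GlaKO cells that missed the rule only by the oligodendrocyte limit. These held 184 Gpr17 UMIs, or 1452 CPM. Next in order came Susd5, Megf11, Cacng4, Emid1, Sema3d and Angptl1. Vcan, the chondroitin sulphate proteoglycan versican, was at 1001 and 1076 CPM and had UMIs in 88.0% and 90.3% of precursors. Dll3, a Notch ligand, was at 127 and 120 CPM, and Ntn1, the guidance cue netrin-1, at 124 and 139 CPM. None of the 20 leading genes differed by 1.5-fold between the genotypes; Kcnh8, a potassium channel, came nearest with 91.2 CPM in wt and 61.9 CPM in GlaKO, a log2 ratio of -0.56 (-0.93 to -0.19). The precursors and these genes were chosen from the same cells, so the ranking is a description.

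**Figure D1:**
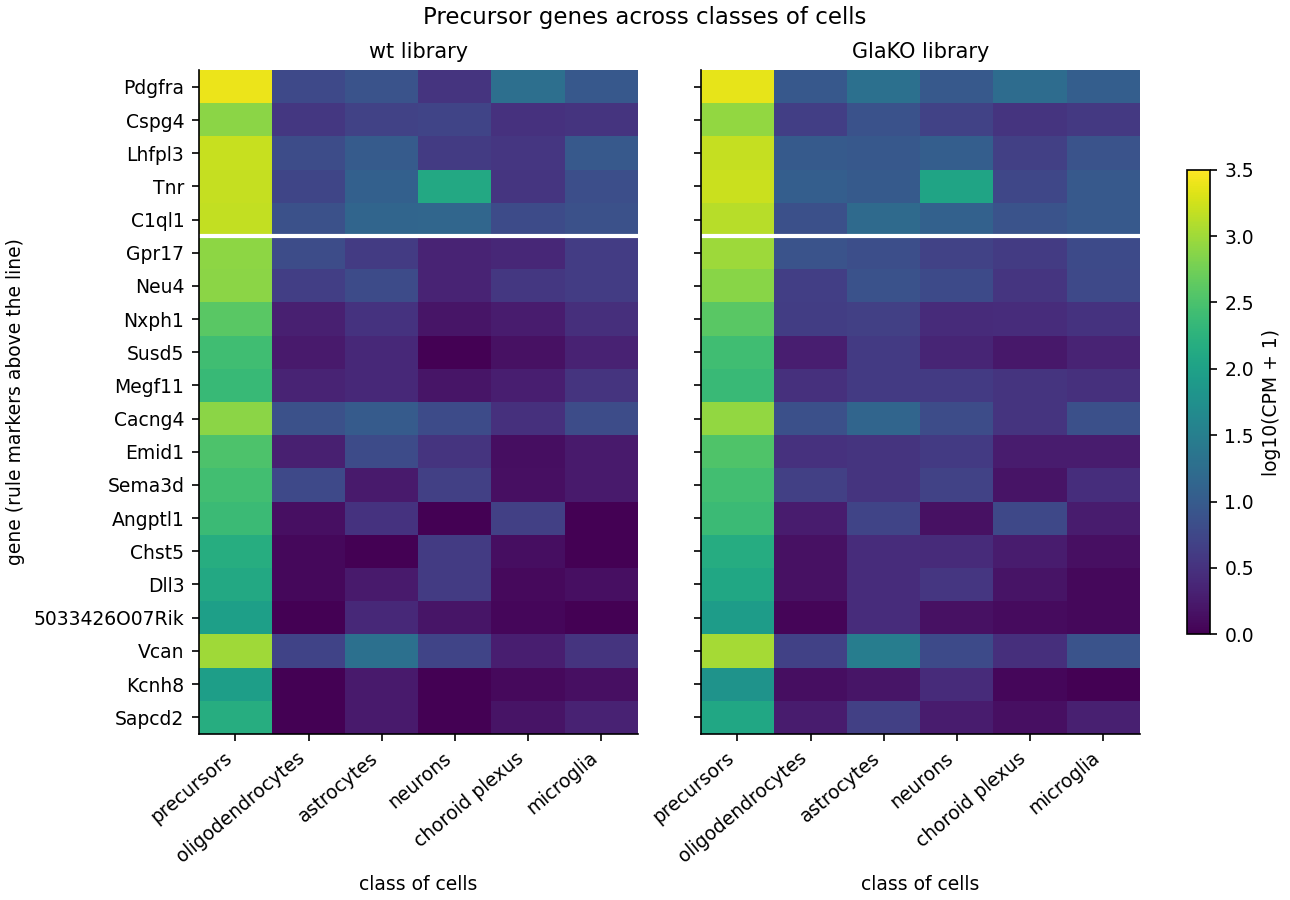
Level of the 5 rule markers (above the white line) and of the 15 leading genes (below it) in 6 classes of cells, in the wt library on the left and the GlaKO library on the right; colour gives log10(CPM + 1). The column of precursors is the brightest for every gene in both libraries, and Tnr is the gene with the next highest level elsewhere, in neurons.

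Near its threshold the rule took few cells, and some of them carried other types. Only 5 wt and 13 GlaKO precursors held 4 or 5 UMIs of the rule markers, against a median of 24 and 28. Just outside, 29 wt and 51 GlaKO barcodes held 2 or 3 UMIs and met the other limits. Olig1 had UMIs in 40% and 69.2% of the cells just inside, and in 17.2% and 29.4% of those just outside. Ptprz1 had UMIs in 20% and 61.5% of the cells just inside, and in 37.9% and 47.1% of those just outside. In wt it thus went the other way. Of the cells just inside, 4 wt and 2 GlaKO cells carried at least 5 UMIs of pericyte and fibroblast markers, and 1 and 6 carried at least 5 UMIs of microglia markers. Over all precursors, 23 wt (6.01%) and 49 GlaKO (10.6%) carried at least 5 UMIs of microglia, T cell, B cell, endothelial, or pericyte and fibroblast markers. These cells held a median of 11 and 18 UMIs of the rule markers, against 25 and 29 in the rest, and 7 and 23 of them had 4000 or more UMIs.

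Among markers of other types, those of microglia and of choroid plexus differed most between the libraries. All 8 microglia genes of the list were detected in both libraries, and they summed to 336 CPM in wt and 1578 CPM in GlaKO precursors, a log2 ratio of 2.23 (2.09 to 2.38), with 14 and 36 precursors holding at least 5 UMIs. Choroid plexus markers ran the other way, 127 against 24.7 CPM, a log2 ratio of -2.37 (-2.86 to -1.90) with 6 of 6 genes detected and no precursor at 5 UMIs, and the wt library also held far more choroid plexus cells (2536 against 783). Oligodendrocyte markers summed to 123 and 225 CPM, with 5 of 5 genes detected. Pericyte and fibroblast markers summed to 570 and 425 CPM, of which 47.5% and 36.2% lay in 1 cell, and Vtn, a pericyte gene, had 98.5% of its wt UMIs in 5 precursors. Markers of astrocytes stood at 160 and 187 CPM and those of neurons at 105 and 113 CPM. The rule capped these sums, and those of oligodendrocytes and choroid plexus, in every cell. Their low levels were thus fixed in advance and are a description. Markers of endothelium (93.4 and 109 CPM), T cells (35.5 and 20.6 CPM) and B cells (19.5 and 9.56 CPM), which the rule did not cap, were low in both. Of the B cell genes, Cd79a and Ms4a1 had 0 UMIs in both, while Igkc had 17 and 2 and Ighm 10 and 16; a gene that a library does not list also counts as 0. A doublet caller marked 3 wt and 10 GlaKO precursors, but it marked too few wt barcodes to have worked, so these counts cannot be compared. The libraries shared 6 barcodes, none of them (0) a precursor. For named genes whose call was lost without the cells that carry other types, or whose ratio moved much, the value without those cells is given with the gene.

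Precursors made up 7.04% of wt barcodes (6.37 to 7.75%, exact Clopper-Pearson interval) and 10.1% of GlaKO barcodes (9.29 to 11.1%). Among barcodes under the choroid plexus limit they made up 13.3% (12.1 to 14.6%) and 12.4% (11.3 to 13.5%), so the order of the libraries turned round once choroid plexus was set aside. Dissection, dissociation and the dead-cell sort can each set such shares.

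Depth split the precursors into a shallow and a deep range in both libraries. UMIs per precursor ran from 1253 to 15777 in wt, with a median of 2489, and from 1292 to 19057 in GlaKO, with a median of 2670.5. The counts of cells fell to a trough near 4000 UMIs, a limit that was set after the data were seen. At or above it lay 106 wt precursors (27.7%, 23.3 to 32.4%) and 163 GlaKO precursors (35.1%, 30.8 to 39.7%). The deep cells held 55.3% and 65.8% of all precursor UMIs. Their median share of mitochondrial UMIs was 1.62% and 1.69%, against 4.26% and 4.23% in the shallow cells, and their ribosomal protein share was 5.77% and 5.69% against 2.81% and 2.52%. Precursors lay in the deep range less than oligodendrocytes did (69.7% and 76.7%), and near astrocytes (29.1% and 40.2%).

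**Figure D2:**
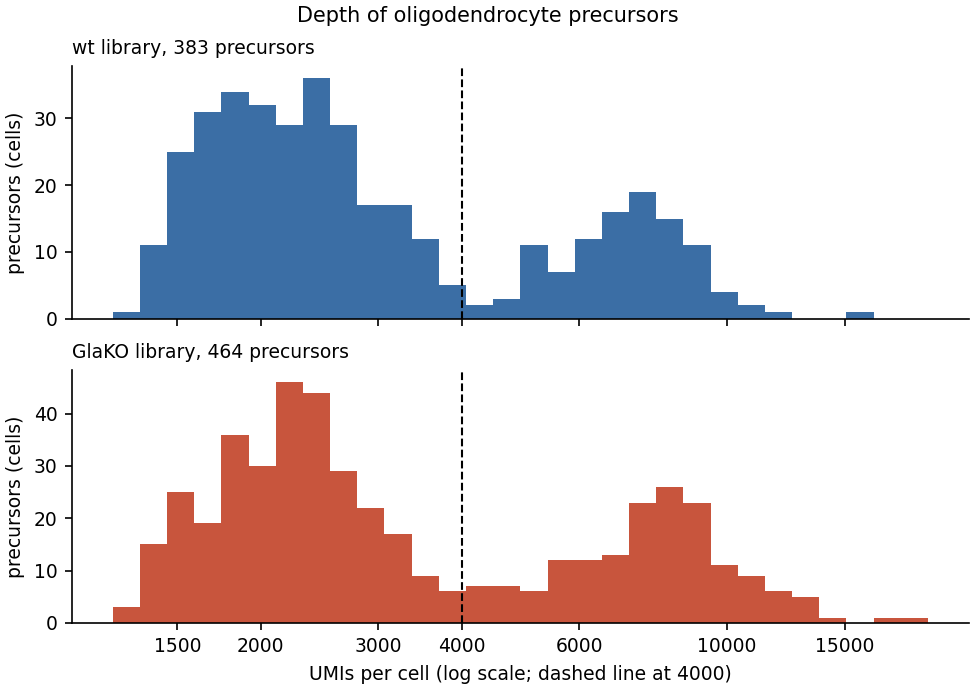
Number of precursors by UMIs per cell (log scale), in the wt library above and the GlaKO library below, with a dashed line at 4000 UMIs. Both libraries show a larger group of cells under 4000 UMIs, with medians of 2149 and 2205 UMIs, and a smaller group above it, of 106 and 163 cells.

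Deep and shallow precursors differed in many genes in each library. In wt, 30.0% of 3291 genes with at least 100 UMIs were at least 1.5-fold higher in deep cells and 22.3% were lower; in GlaKO the shares were 31.2% and 23.5% of 4669 genes. Marcksl1, an actin regulator of immature neural cells, stood at 359 CPM in deep and 84.1 CPM in shallow wt precursors, and at 339 and 63.4 CPM in GlaKO, log2 differences of 2.09 and 2.42. Ccnd1, the cyclin of the G1 phase, stood at 821 and 268 CPM in wt and 829 and 230 CPM in GlaKO. The progenitor transcription factor Sox3 (log2 differences of 1.81 and 2.05), the growth-cone protein gene Basp1 (1.80 and 2.07) and the tubulin gene Tubb5 (1.97 and 1.64) went the same way. Sox10 (0.49 and 1.08), Olig2 (0.60 and 0.75) and Olig1 (0.41 and 0.55) were also more abundant in deep cells, by less. On the shallow side lay Ptgds (log2 differences of -2.13 and -1.71), the synaptic adhesion gene Il1rapl1 (-1.69 and -1.87), Csmd3 (-1.47 and -1.52) and the mitochondrial mt-Atp8 (-1.38 and -1.36). Pdgfra itself was lower in deep cells, at 1749 against 3335 CPM in wt and 1754 against 3435 CPM in GlaKO, and Cspg4 stood at 545 against 1090 and 621 against 1325 CPM. The split is a range of depth, not a cell type, and the part of depth, mitochondrial share and ribosomal share in these differences was not tested.

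**Figure D3:**
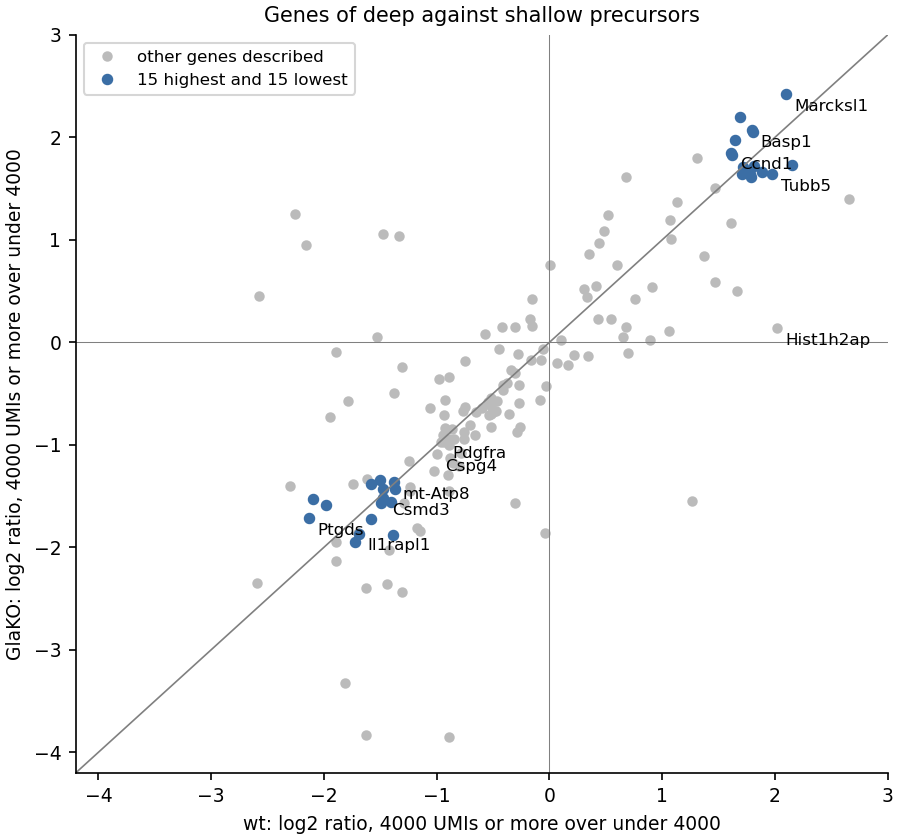
Each point is a gene; the axes give the log2 ratio of its level in precursors of 4000 UMIs or more over that in precursors under 4000 UMIs, in wt (horizontal) and GlaKO (vertical), and the diagonal marks equal values. The 15 highest and 15 lowest genes (blue) were ranked by the smaller of their 2 values and so had to differ the same way in both libraries; Marcksl1 lies at 2.09 and 2.42, whereas Hist1h2ap was higher in deep cells of the wt library alone (2.02 against 0.14).

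Gla, the gene inactivated in the model, spans positions 134588149 to 134601125 of chromosome X on the minus strand (build GRCm38, GENCODE M21 annotation). Wt precursors held 40 Gla UMIs in 34 of 383 cells, or 28.9 CPM (20.7 to 39.4, exact Poisson interval), and GlaKO precursors 14 UMIs in 14 of 464 cells, or 7.05 CPM (3.85 to 11.8). The log2 ratio was -2.04 (-3.03 to -1.13), from 54 UMIs in all, under the limit of 100. Over the alternatives tried it ran from -2.04 to -1.66, and it was -1.97 in deep and -1.91 in shallow cells. In wt the precursor level was the highest of the 6 classes, ahead of microglia at 15.7 CPM (11.2 to 21.4), choroid plexus at 12.7, astrocytes at 10.7, neurons at 8.40 and oligodendrocytes at 7.71 CPM. The intervals of precursors and microglia overlapped narrowly, and those of astrocytes, neurons and oligodendrocytes overlapped widely. In GlaKO the order was neurons (9.80 CPM), astrocytes (9.49), microglia (8.81), oligodendrocytes (7.11), precursors (7.05) and choroid plexus (5.38 CPM), and neighbours overlapped throughout. The ratio in oligodendrocytes was -0.12 (-0.72 to 0.50), in astrocytes -0.18 (-1.30 to 0.97), in neurons 0.22 (-0.80 to 1.29), in choroid plexus -1.24 (-1.77 to -0.74) and in microglia -0.83 (-1.49 to -0.17). Shares of cells with a Gla UMI were 8.88% and 3.02% in precursors and 4.35% and 4.73% in oligodendrocytes, whose median depth was more than that of precursors (5821 and 6705.5 UMIs). The sources do not give the part of Gla altered in this allele, and a 3' count can lie outside it, so these UMIs do not check the genotype.

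Between the genotypes, 178 of 6882 compared genes were higher in GlaKO precursors (2.59%) and 105 were lower (1.53%), and the median log2 ratio of all compared genes was -0.01. The 12 highest and 12 lowest genes were named among those seen in at least 5% of the precursors of the library where they were higher. Their level in precursors also had to reach 10% of that in the class with the highest level. Of these 24 genes, 6 passed 1.5-fold in the same direction in at least 4 of the 5 other classes, 10 did so in 1 to 3 classes and 8 in none, counting only classes with at least 100 UMIs of the gene. The genes Rtl4 and Gm38039, counted among the 8, had no class with that many. In the other classes, 2.11% of genes were higher and 1.14% lower in oligodendrocytes, 2.66% and 1.41% in astrocytes, 2.52% and 1.69% in neurons, 4.88% and 2.54% in choroid plexus and 2.00% and 1.56% in microglia. In precursors 4.11% of genes passed in either direction. Much of the top and the bottom of the precursor ranking thus went along with other cell types of the same libraries. With 1 library for each genotype, a difference of genotype and a difference of library cannot be told apart.

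Haemoglobin transcripts led the higher side. Hba-a2 had 5 UMIs in wt and 161 in GlaKO precursors, Hba-a1 7 and 176, and Hbb-bs 36 and 270, log2 ratios of 4.48, 4.13 and 2.38. In GlaKO, 70.8%, 63.1% and 25.2% of these UMIs lay in 1 cell, and the ratios were 3.03, 2.91 and 2.05 once the cell with the most UMIs of the gene was removed from each library. Hbb-bs was higher in all 5 other classes, from 1.91 in choroid plexus to 5.40 in oligodendrocytes. The copies Rnaset2a (33 and 157 UMIs, log2 ratio 1.73) and Rnaset2b (45 and 149 UMIs, 1.20), which encode lysosomal ribonucleases, were higher in all 4 other classes with enough UMIs, between 1.10 and 1.81. Hba-a1 and Hba-a2, Rnaset2a and Rnaset2b, and the histone genes named below are near-identical copies whose UMIs could be split between them.

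Among higher genes that were not of that kind, Nmt1, an N-myristoyltransferase, had the most UMIs. It stood at 93.4 CPM in wt and 199 CPM in GlaKO precursors, with UMIs in 27.2% and 51.5% of cells, a log2 ratio of 1.09 (0.80 to 1.39) against 0.38 to 0.76 in the other classes. Mid1, a microtubule-associated ubiquitin ligase, stood at 13.8 and 41.3 CPM, a log2 ratio of 1.59 (0.85 to 2.39), and its ratio in microglia was 1.45. Smpd3, the neutral sphingomyelinase that cuts sphingomyelin to ceramide, stood at 25.3 and 61.9 CPM and was found in 8.62% and 20.3% of cells. Its log2 ratio was 1.29 (0.74 to 1.87), 1.47 in deep and 1.39 in shallow cells, and 0.94 in both oligodendrocytes and neurons, the classes with enough UMIs. Igfbp5, an insulin-like growth factor binding protein, stood at 23.2 and 47.3 CPM, a ratio of 1.03 (0.44 to 1.66) that lay between -0.24 and 0.14 in astrocytes, neurons and choroid plexus. Itih5, a hyaluronan-binding serum protein, stood at 22.4 and 80.0 CPM in 2.61% and 7.54% of cells, a ratio of 1.83 (1.27 to 2.44), with 38.7% and 27.7% of its UMIs in 1 cell. Without the cells that carry other types its ratio was 3.07. The group was completed by Gm26669 (1.08) and Gm38039 (1.19). Gm38039 lies on the minus strand of chromosome 1 at 159928390 to 159931726, within the gene Tnr on the plus strand, and the sources do not say whether counting used strand.

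On the lower side, Nme2 (70.2 and 21.1 CPM, log2 ratio -1.73), Gm10076 (317 and 132 CPM, -1.27) and the mitochondrial complex I gene mt-Nd4l (2348 and 1241 CPM, -0.92) were lower in all 5 other classes too. Gm26825 (114 and 34.2 CPM, -1.74) was lower in 3 of 4. Blvra, the biliverdin reductase that makes bilirubin, stood at 60.1 and 30.7 CPM, a log2 ratio of -0.97 (-1.47 to -0.47) against -0.28 to 0.03 elsewhere. Glt8d1, a glycosyltransferase, stood at 87.6 and 45.3 CPM, a ratio of -0.95 (-1.36 to -0.55) against -0.49 to -0.13 elsewhere, and of -0.36 in deep cells. These last values are given side by side, and the differences between classes were not tested. Rtl4, at 65.1 and 26.7 CPM (-1.29), had too few UMIs in other classes to compare. Of the wt UMIs of Vcam1, Id3 and Gadd45b, 56.1%, 47.7% and 35.6% lay in the top cell of each gene. With that cell removed from each library, the log2 ratios of -1.29, -0.94 and -1.55 were -0.17, -0.30 and -1.28, so that Vcam1 and Id3 came inside 1.5-fold and Gadd45b did not. Without the cells that carry other types they were 0.19, -0.42 and -0.99.

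**Figure D4:**
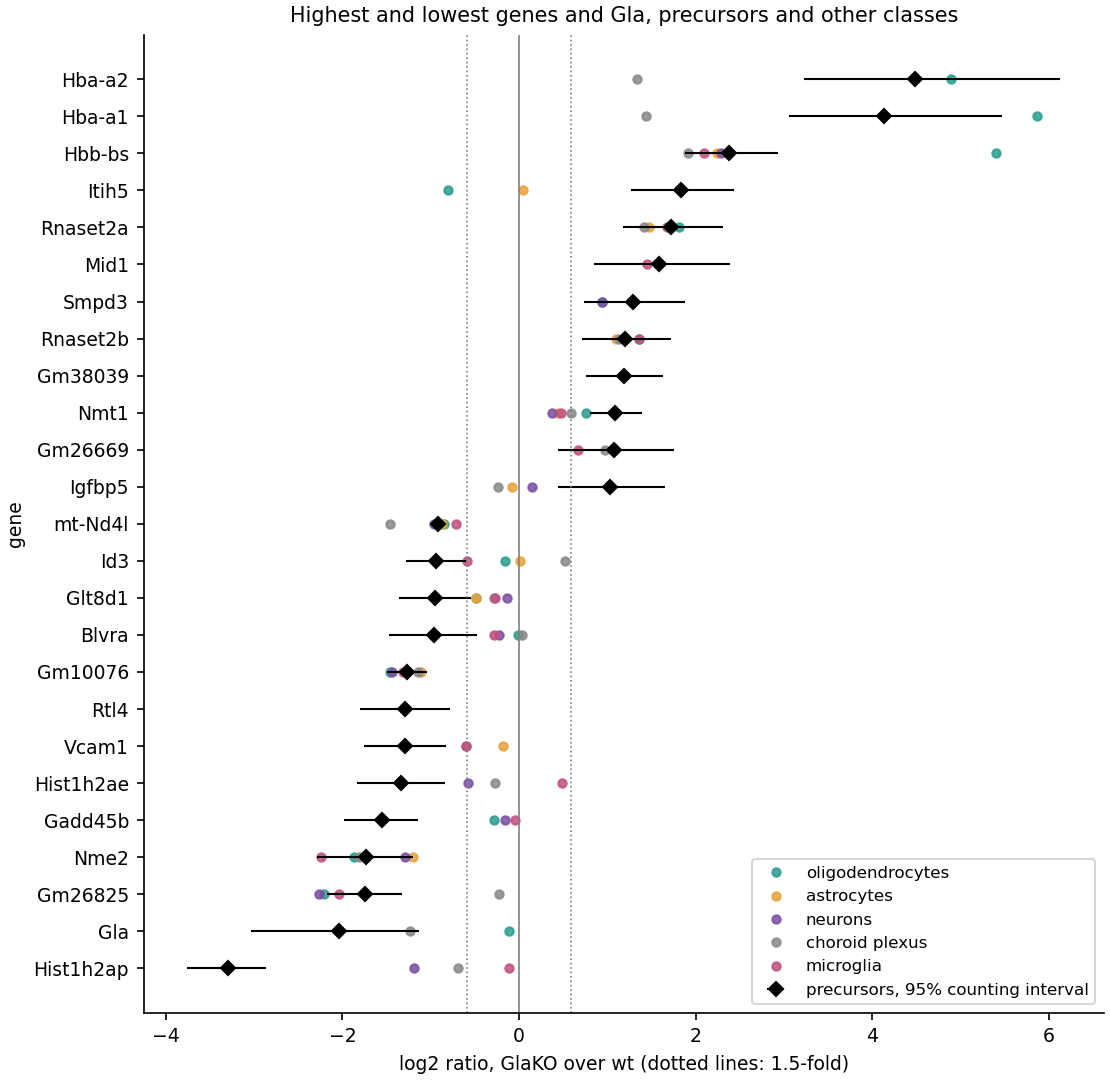
Log2 ratio of GlaKO over wt for the 12 highest and 12 lowest genes and Gla. Black diamonds are precursors with 95% counting intervals, coloured points are the other classes where the gene had at least 100 UMIs, and dotted lines mark 1.5-fold. Rnaset2a, Rnaset2b, Nme2 and Gm10076 show the other classes beside the precursor value, whereas Igfbp5, Blvra and Hist1h2ap show them apart from it.

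The identity genes of precursors were level between the libraries. The counts of this and the following lists stand beside 2.59% higher and 1.53% lower among all compared genes. Of 30 other genes known from precursors, all 30 were compared, 1 was higher and 0 were lower, and their median log2 ratio was 0.01. The 1 higher gene was Ntm, the adhesion molecule neurotrimin, at 458 CPM in wt and 929 CPM in GlaKO precursors and with UMIs in 74.9% and 92.0% of cells. Its ratio of 1.02 (0.89 to 1.15) stood beside 1.00 in astrocytes and 1.52 in neurons, the classes with enough UMIs. Olig1 stood at 2844 and 2780 CPM, Olig2 at 1033 and 1047 CPM, Sox10 at 691 and 715 CPM and Ptprz1 at 5885 and 5809 CPM. Summed over the list, the level was 32348 CPM in wt and 32388 CPM in GlaKO precursors.

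Transcription factors of the lineage held 1 higher and 2 lower genes among 31 compared, with a median of 0.06. Hes1, a repressor downstream of Notch, stood at 151 CPM in wt and 250 CPM in GlaKO precursors, a log2 ratio of 0.73 (0.50 to 0.97) that was 1.05 in deep and 0.48 in shallow cells and 0.40 after thinning to 2000 UMIs. Hes5 (544 and 511 CPM), a repressor of the same pathway, was within 1.5-fold. Klf9, a thyroid hormone and glucocorticoid target that acts in differentiating oligodendrocytes, stood at 132 and 77.0 CPM, a ratio of -0.77 (-1.09 to -0.46). It was -0.92 in deep and -0.60 in shallow precursors, -0.99 in microglia, and between -0.36 and 0.35 in the remaining classes. Klf9 was also the 1 lower gene among 10 glucocorticoid-responsive genes compared, of which 0 were higher (median -0.04). Id3, the third gene past 1.5-fold here, came inside it without its top cells, as described. Nkx2-2 (127 and 126 CPM), Sox6 (394 and 403 CPM) and Tcf7l2 (119 and 119 CPM) were alike in the 2 libraries.

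Genes of committing precursors held 3 higher and 0 lower genes among 18 compared, against 2.59% and 1.53% of all compared genes, with a median of 0.08. Smpd3 was the first of these. Bmp4, a secreted signal of committed precursors on chromosome 14 at 46383520 to 46390669, had 33 UMIs in wt and 88 in GlaKO precursors, or 23.9 and 44.3 CPM. Its log2 ratio was 0.89 (0.30 to 1.51), and 1 cell held 12.1% of the wt and 20.5% of the GlaKO UMIs. Chn2, a Rac regulator, stood at 28.9 and 44.3 CPM, a ratio of 0.61 (0.06 to 1.19) that was 0.44 without its top cells and 0.05 after thinning to 2000 UMIs. Its sign turned, at -0.36, without the cells of the committing range described below. Bcas1 (295 and 319 CPM), Fyn (260 and 327 CPM), Sirt2 (617 and 683 CPM) and Itpr2 (263 and 282 CPM) stayed within 1.5-fold. Enpp6, an early marker of newly forming oligodendrocytes, had 10 and 46 UMIs, too few to be compared, with 30.0% and 21.7% of them in 1 cell.

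The upper limit on oligodendrocyte markers bore directly on Bmp4 and Chn2. Leaving that limit out, an alternative chosen after the data were seen, added 5 wt and 13 GlaKO cells. The 13 GlaKO cells held 78 Bmp4 UMIs, in 3 of them, and 149 Chn2 UMIs, in 12, whereas the 5 wt cells held 1 and 10. With these cells the log2 ratio of Bmp4 was 1.71 (1.17 to 2.29) and that of Chn2 1.67 (1.22 to 2.14). The direction was the same on both sides of the limit, and the size of the difference depended on where the limit was drawn.

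A range was set at 5 or more UMIs of Gpr17, Neu4, Bmp4 and Enpp6 summed. The name committing range comes from these genes, and it is a range of a score, not a cell type. It held 203 of 383 wt precursors (53.0%, 47.9 to 58.1%) and 257 of 464 GlaKO precursors (55.4%, 50.7 to 60.0%), and 25 of 851 wt (2.94%) and 55 of 1354 GlaKO oligodendrocytes (4.06%). The range followed depth, and took in 84.9% of deep and 40.8% of shallow wt precursors, and 84.0% and 39.9% in GlaKO. Median UMIs were 3200 and 4597 inside and 2079 and 2125 outside it. Within 1 UMI of the limit lay 85 wt and 77 GlaKO precursors. At 10 UMIs the shares of all precursors in the range were 13.6% (10.3 to 17.4%) and 25.9% (21.9 to 30.1%). When each cell was thinned to 2000 UMIs, which left 267 wt and 349 GlaKO cells, they were 24.3% (19.3 to 29.9%) and 30.4% (25.6 to 35.5%), and these intervals overlapped. Genes other than these were held out of the score. Among all genes with at least 100 UMIs, 8.39% of 3291 in wt were at least 1.5-fold higher inside and 3.65% lower. In GlaKO the shares were 13.9% and 6.30% of 4669 genes. Lims2 (log2 differences of 1.14 in wt and 1.05 in GlaKO), Sox3 (1.52 and 1.52), Clip3 (1.46 and 1.58) and Nkx2-2 (0.86 and 1.28), a transcription factor of differentiating precursors, were among those higher in both, and were picked for it. Itpr2 (0.04 and -0.44) was not higher, and the myelin genes Mbp (-0.56 and -1.09), Mog (-1.44 and -1.10) and Ermn (-1.50 and -1.39) lay lower inside the range. Sox10 (0.51 and 0.97), Sirt2 (0.48 and 0.89) and Bcas1 (0.25 and 0.88) passed 1.5-fold in GlaKO alone, a difference between the libraries that was not tested. Pdgfra lay slightly lower inside (-0.24 and -0.31). Whether the held-out genes followed commitment or depth was not tested.

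Myelin genes stood apart from the other lists in their median. Among 22 compared, 9 were higher and 0 lower in GlaKO precursors, with a median log2 ratio of 0.44, against the background of 2.59% of genes higher. Mbp stood at 140 and 249 CPM, a ratio of 0.83, Trf, the iron carrier transferrin, at 47.8 and 112 CPM (1.23), Ermn, a late myelin protein gene, at 42.0 and 78.5 CPM (0.90) and Mog at 18.8 and 40.3 CPM (1.10). Mog, Mag and Ermn belong to the upper limit of the rule and are 3 of the 9 higher genes. Their values, and to that extent the count and the median, are a description. Apod (46.3 and 270 CPM, 2.54) moved to 1.34 without the cells that carry other types. Precursor levels were low against oligodendrocytes: Mbp reached 3.23% of the level in the highest class. The medians of the same list were 0.51 in astrocytes, 0.53 in neurons, 0.49 in choroid plexus and 0.46 in microglia, cells that do not make myelin, and 0.01 in oligodendrocytes. The GlaKO library held 1354 oligodendrocytes against 851 in wt. What part oligodendrocyte RNA outside its own cells had in these values was not tested. Some genes of the list stayed within 1.5-fold: Gjc3 stood at 773 and 835 CPM and Nfasc at 127 and 122 CPM. Ugt8a, the lowest of the list, stood at 190 and 163 CPM (-0.22). These genes were chosen after their values were seen, and 18 of the 22 compared were more abundant in GlaKO.

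**Figure D5:**
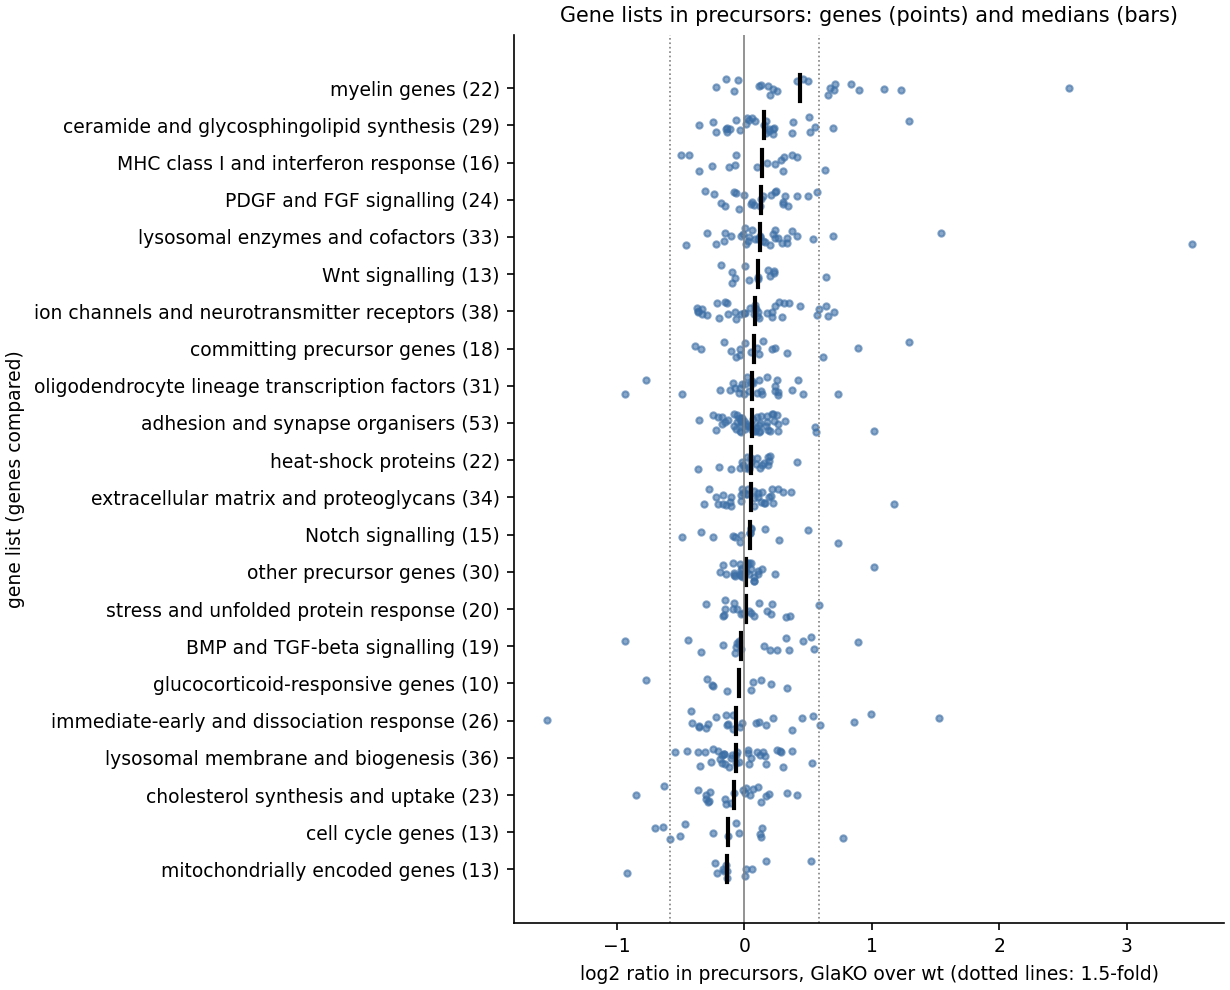
Log2 ratio of GlaKO over wt in precursors for every compared gene of 22 lists (points, spread vertically for legibility), with the median of each list as a black bar, the median of all compared genes as a grey line and 1.5-fold as dotted lines. The number of genes compared stands after each name. Only the bar of the myelin genes, at 0.44, lies beyond 0.16 on either side, and that list includes Mog, Mag and Ermn of the rule's upper limit.

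Dividing cells were rare in both libraries. At least 3 UMIs of 12 mitotic genes (Mki67, Top2a, Cdk1 and others) were found in 5 of 383 wt (1.31%, 0.425 to 3.02%) and 5 of 464 GlaKO precursors (1.08%, 0.351 to 2.50%), against 0.118% and 0.369% of oligodendrocytes. No UMI of these genes was found in 372 and 442 precursors. Without the cells that carry other types, the counts were 3 of 360 wt and 5 of 415 GlaKO precursors. Some of the 5 wt cells thus carried markers of other types. Mki67 and Top2a were listed for the GlaKO library alone, so the wt count rests on fewer genes. Among 13 cell cycle genes compared, 1 was higher and 2 lower (median -0.13), against 2.59% and 1.53% of all compared genes. Ccnd2, a G1 cyclin, stood at 65.1 and 111 CPM, a log2 ratio of 0.77 (0.41 to 1.14), with 0.65 in astrocytes and 0.80 in microglia, and was 0.53 in shallow precursors. Hmgb2, a chromatin protein, stood at 220 and 141 CPM (-0.64) and H2afx, a histone of DNA repair, at 106 and 64.9 CPM (-0.70). The 5 wt cells held 41.1% of wt Hmgb2 UMIs, and outside the dividing cells the ratio was -0.16 (-0.45 to 0.12), while that of H2afx was -0.56 (-0.97 to -0.15). In shallow cells the ratio was -0.07 for Hmgb2 and -0.51 for H2afx, and without the cells that carry other types H2afx was at -0.45.

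The histone gene Hist1h2ap was the lowest gene in GlaKO precursors and showed the same dependence on few cells. It had 342 UMIs in wt and 50 in GlaKO, or 248 and 25.2 CPM, a log2 ratio of -3.30 (-3.76 to -2.87). It was also lower in neurons (-1.19) and choroid plexus (-0.69), and stood at -0.12 in microglia, the other classes with enough UMIs. The 5 dividing wt cells, some of which carried other types, held 72.8% of its wt UMIs, 143 of them in 1 cell. The 5 dividing GlaKO cells held 1 UMI. Without the cells that carry other types the ratio was -3.08. Outside the dividing cells it had 93 and 49 UMIs, a ratio of -1.48 (-2.01 to -0.97). Hist1h2ae went from -1.33 to -0.73 (-1.38 to -0.08) in the same way, and was at -0.94 without the cells that carry other types and -0.55 in shallow cells. Phase of the cycle within the dividing cells was not tested.

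Receptor and signalling genes that govern precursors were mostly level. No gene (0) of 24 compared in PDGF and FGF signalling passed 1.5-fold in either direction, and the median was 0.13. The feedback inhibitor Spry2 came nearest, at 101 and 150 CPM (0.57), while Fgfr1 stood at 65 and 68 CPM and Erbb3 at 88 and 86 CPM. Bmp4 and Id3 were the 1 higher and 1 lower gene among 19 of BMP and TGF-beta signalling (median -0.03); the receptors Bmpr1a (62 and 59 CPM) and Bmpr2 (111 and 109 CPM) were level. In Notch signalling, Hes1 was the 1 higher gene of 15, with Notch1 at 197 and 204 CPM and the ligand Dll1 at 117 and 92 CPM. In Wnt signalling, the coreceptor Lrp5 (27.5 and 42.8 CPM, 0.64) was the 1 higher gene of 13. Its ratio was 0.27 in cells under 4000 UMIs and 1.49 in deep cells. It was 0.58 without the cells that carry other types and -0.26 after thinning to 2000 UMIs. The call was thus lost in shallow cells, without those cells and after thinning, and the direction turned after thinning only. None of the Notch and Wnt genes compared was lower (0 of each).

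Genes for the matrix, for channels and for adhesion, which serve the contacts of precursors with neurons, were level with few exceptions. Of 34 matrix genes, 1 was higher and 0 lower (median 0.05): Sparc stood at 84.0 and 189 CPM, a log2 ratio of 1.17 that moved to 0.21 without the cells that carry other types. Bcan (1874 and 1668 CPM) and Cspg5 (4414 and 3988 CPM), proteoglycans of perineuronal matrix, were within 1.5-fold. Of 38 genes for ion channels and neurotransmitter receptors, 4 were higher and 0 lower (median 0.08), against 2.59% of all compared genes higher and 1.53% lower. Among them were the AMPA receptor auxiliary subunit Cacng7 (60.1 and 94.6 CPM, 0.66), the calcium channel Cacna1d (81.1 and 126 CPM, 0.64) and the kainate receptor subunit Grik4 (31.8 and 47.8 CPM, 0.59). The ratio of Grik4 was -0.32 in deep and 1.498 in shallow cells, that of Cacna1d was 0.36 and 1.05, and that of Cacng7 was 0.55 with equal weight over 5 depth classes. Cacng7 was also higher in oligodendrocytes (0.76) and neurons (0.79), and Cacna1d in astrocytes (0.63) and microglia (0.92). The main AMPA receptor subunit Gria2 stood at 922 and 1089 CPM. Ntm was the 1 higher gene of 53 for adhesion and synapses, of which 0 were lower.

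Lysosomal genes were of interest because Gla encodes a lysosomal enzyme. Among 33 enzymes and cofactors, 3 were higher and 0 lower (median 0.12), against 2.59% and 1.53% of all compared genes. Among them were the proteases Ctss (26.8 and 305 CPM, 3.51), which is abundant in microglia, and Lgmn (111 and 180 CPM, 0.69). Without the cells that carry other types their ratios were 0.71 and -0.12, and the list median was 0.01. Galc, which cuts galactosylceramide, stood at 50 and 56 CPM, and Hexa at 160 and 161 CPM. Psap, the precursor of the saposin cofactors, stood at 758 and 872 CPM. Of 36 genes for the lysosomal membrane and biogenesis, 0 passed 1.5-fold in either direction (median -0.07), with Lamp1 at 838 and 807 CPM and Npc1 at 286 and 307 CPM.

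In lipid metabolism, 2 of 29 genes for ceramide and glycosphingolipid synthesis were higher and 0 lower (median 0.15). Over all compared genes 2.59% were higher and 1.53% lower. Smpd3 was joined by Cerk, the ceramide kinase, at 28.2 and 45.8 CPM, a log2 ratio of 0.70 (0.14 to 1.28) that kept between 0.60 and 0.75 under the alternatives tried. Ugcg, which makes the first glucosylceramide of the pathway that leads to globotriaosylceramide, stood at 56 and 57 CPM. Cholesterol genes held 0 higher and 2 lower among 23 compared (median -0.08), beside those same shares. Fdps, the farnesyl diphosphate synthase, stood at 118 and 65.4 CPM, a ratio of -0.85 (-1.19 to -0.51), and was lower in deep (-0.99) and shallow cells (-0.65) alike. In the other classes it lay between -0.36 and 0.35. Idi1, the isomerase before it, stood at 52.1 and 33.7 CPM (-0.63), but came inside 1.5-fold at -0.13 in shallow cells, -0.52 after thinning and -0.40 without the cells that carry other types. Hmgcs1, which acts earlier in the pathway, at 76 and 87 CPM, did not pass 1.5-fold. Apoe, the lipid carrier, stood at 10865 and 8817 CPM and was found in every precursor.

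Stress and dissociation genes went in both directions. Of 26 immediate-early genes, 4 were higher and 1 lower (median -0.06), against 2.59% and 1.53% of all compared genes. Fos (3568 and 3348 CPM) and Jun (2491 and 2429 CPM) were level. Atf3 (52.8 and 152 CPM, 1.52) moved to 0.38 without the cells that carry other types, and Zfp36 (54.3 and 108 CPM, 1.00) to 0.67 and Ier5 (87.6 and 132 CPM, 0.60) to 0.19. Btg1 (202 and 366 CPM, 0.86) was higher in all 5 other classes as well. Gadd45b was the lower gene. Of 22 heat-shock genes 0 passed 1.5-fold (median 0.05). Among 20 genes of the unfolded protein response, Slc38a2, an amino acid transporter (307 and 461 CPM, 0.59), was the 1 higher gene and 0 were lower. The ratio of Slc38a2 was 0.52 in deep cells. It was also higher in 4 of the 5 other classes, from 0.69 in microglia to 1.43 in astrocytes, and stood at 0.58 in oligodendrocytes. Of 16 genes of MHC class I and the interferon response, 1 was higher, the peptide-loading gene Tapbp (31.1 and 48.3 CPM, 0.63), and 0 were lower; its ratio was 0.54 in shallow cells and 0.58 without the cells that carry other types, inside 1.5-fold in both. Of 13 mitochondrially encoded genes 0 were higher and 1, mt-Nd4l, was lower, while mt-Nd4 stood at 1611 and 2316 CPM (0.52).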

How the data were processed

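Values are raw counts of UMIs per gene and barcode as deposited by the authors for each library. Per the submitters' processing notes the tools were Cell Ranger 6.0.1, R 4.1.3 and Seurat 4 on the build mm10; the sources give no gene annotation or filters. Depth was 31929688 UMIs over 5443 wt barcodes and 29914106 over 4572 GlaKO barcodes, of which precursors held 1381738 and 1986893. Libraries listed 13008 and 13154 genes, 12744 in common; genes of 1 library took no part in ratios. Precursors were found by the rule, with no clustering; doublets were scored with Scrublet in scanpy 1.11.5, which marked 26 wt (0.478%) and 59 GlaKO barcodes, too few in wt to have worked, and were kept. Summed counts were divided by class totals, and ratios carry exact conditional intervals, a step tested on simulated data. Such intervals treat UMIs as independent, so a gene held by few cells has a wider true error. Named genes were the 12 highest and 12 lowest under the stated conditions, Gla, the rule genes, up to 4 genes past 1.5-fold in each direction of each list and the 20 leading genes; other list genes were chosen for their function after their values were seen. Values of some genes on the lists are not reported here, though counts and medians include them. The members, lists and limits were chosen with earlier results of these data known. Coordinates are those of GENCODE M21 on GRCm38, matched by symbol. Alternatives comprised 14 fixed ones and 4 added after the data were seen; TMM factors came from edgeR 4.0.16.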

Additional observations from a re-analysis of the deposited data

Results flagged for a closer look

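Precursors and another class differed in opposite directions for 4 named genes, each past 1.5-fold on both sides. None of these differences between classes was tested, since each class has 1 library of each genotype. Itih5 had a log2 ratio of GlaKO over wt of 1.83 in precursors and -0.80 in oligodendrocytes, with its precursor UMIs in 2.61% of wt and 7.54% of GlaKO cells. Trf, transferrin, had 1.23 in precursors and -1.23 in choroid plexus cells, where it stood at 664 and 283 CPM. The histone gene H2afx had -0.70 in precursors and 0.70 in choroid plexus cells. Ctss had 3.51 in precursors and -1.22 in neurons. Microglia markers summed over a class moved in the same directions as Ctss, with 2.23 in precursors and -0.88 in neurons, and their part in its values was not tested.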

How the results depend on the processing

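The median ratio of all genes moved by at most 0.02 under any setting. Counts of higher and lower genes, 178 and 105, became 741 and 581 with a summed count of at least 20, 22 and 7 with at least 500, 1118 and 897 with no filter, and 90 and 47 of 2936 genes after thinning to 2000 UMIs. They were 95 higher genes (of 2254) without the committing range and 105 (of 3007) in cells under 4000 UMIs, where 136 were lower; 166 lower genes with the mean of per-cell CPM, and 193 with equal weight over 5 depth classes. Fewer genes or cells enter the filtered, thinned and restricted sets; for the last pair of settings the cause was not tested. Higher genes were 62.9% of calls, 43.6% in cells under 4000 UMIs and 75.9% at a summed count of at least 500. Without the 72 cells carrying other types, 122 and 82 genes were called, 94 and 62 of them shared with the full set. Halving the limits of the rule, with fewer than 5 microglia UMIs, gave precursor shares of 6.47% (wt) and 8.22% (GlaKO) of all barcodes, and of 12.2% (11.04 to 13.5%) and 10.02% (9.07 to 11.02%) outside choroid plexus, where the intervals no longer overlapped; leaving out cells that carry other types gave 6.61% and 9.08%, and 12.5% and 11.1%. The committing share was 75.5% and 75% at 3 UMIs, 13.6% and 25.9% at 10 UMIs, and 24.3% and 30.4% after thinning; the share of dividing cells was 0.375% (wt) and 1.43% (GlaKO) after thinning, which turned the order of the libraries. Ratios changed sign for Gadd45b (0.0507) and Id3 (0.0272) at a rule sum of at least 8, for Vcam1 (0.0766) without the highest doublet scores, for Lgmn (-0.25) and Zfp36 (-0.17) with halved limits, for Lgmn (-0.12) without cells carrying other types, and for Atf3 (-0.24) in cells under 4000 UMIs; each lost cells by construction, and the cause was not tested further. Of the other values counted here, 1093 stayed within their counting interval and 101 left it. Values not counted here changed sign too. Among them were Chn2 (-0.36) without the committing range, Grik4 (-0.32) in cells of 4000 UMIs or more and Lrp5 (-0.26) after thinning. Vcam1 did so at 0.19 without cells carrying other types and 0.36 in cells under 4000 UMIs. No leave-one-out was possible with 1 library for each genotype. No paired analysis was possible because each genotype has 1 library. Depth limits genes under 100 UMIs, among them Gla and Enpp6.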

Other observations

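Some genes with clear precursor signal were listed for the GlaKO library alone, so no ratio was formed. GlaKO precursors held 120 UMIs of Gucy2f, a guanylate cyclase known from the retina, 113 of Sstr1, a somatostatin receptor, 88 of Gsx1, a homeobox factor of neural progenitors, 85 of Has2, a hyaluronan synthase, and 57 of Nog, the secreted BMP antagonist noggin. In all, 410 genes were listed for GlaKO alone and 264 for wt alone. Top2a, listed for GlaKO alone, had 54 UMIs in GlaKO precursors, 38 of them in 1 cell.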
